A study of Homo sapiens with 4 samples.

Results

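The interleukin-1 (IL-1) family was read here through 9 genes. They were 4 ligand genes (IL1A, IL1B, IL33 and IL18) and the gene of the natural antagonist (IL1RN). With them stood 3 receptor chain genes (IL1R1, IL1RL1 and IL1RAP) and IRAK2, a signalling gene of the receptor complex. The 9 genes were taken as a named list, by symbol and Ensembl identifier, out of the 60279 genes counted in each library. No measured value enters the rule, although the list was drawn up with earlier results of these data known. All 9 were found, and 8 passed the filter of a mean of at least 1 CPM (reads of a gene per 1000000 gene reads of the library) that left 14269 genes. IL1RN did not pass and is given by its reads, without a call.

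SUM159 is an established triple-negative breast cancer cell line. It was sequenced in 4 conditions with 1 mRNA library each: no drug, palbociclib, indisulam, and palbociclib with indisulam (the combination). Palbociclib blocks CDK4 and CDK6, kinases that drive entry into S phase, and indisulam is a molecular glue that causes degradation of RBM39, a protein of pre-mRNA splicing, through DCAF15. The sample labels give 0.5 µM palbociclib and 2 µM indisulam for 10 days, while the series text gives 2 µM and 3 µM for 16 h in technical duplicates. The dose and duration behind these libraries, and whether duplicates were pooled, were not resolved. All 4 libraries share the line and its medium, which contained insulin and hydrocortisone, and what the untreated cells received in place of drug was not stated.

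The gene totals lay between 12555908 and 16712174 reads, and mitochondrial genes took 4.90% to 7.33% of them. The identity of the line was checked on its markers. VIM was at 2643 to 4598 CPM, the hormone receptor genes ESR1 and PGR were at no more than 1.11 and 0.209 CPM, and ERBB2 was at 110 to 143 CPM. Of 8 leukocyte markers, CD3E and MS4A1 had no read in any library and CD68 and LYZ had at most 3. PTPRC was at 11.1 to 17.5 CPM and CD14 at 3.95 to 9.24 CPM. CSF1R had 3, 3, 12 and 17 reads in the untreated, palbociclib, indisulam and combination libraries, and ITGAM had 5, 11, 8 and 26. Both were highest in the combination, by 4.95-fold over untreated for CSF1R (exact interval 1.43 to 26.4) and 4.55-fold for ITGAM (1.72 to 15.2). The summed level of the 8 markers, carried by PTPRC and CD14, was 19.1 to 22.7 CPM. The part of such cells in the results was not tested. Because the cells were measured in bulk, more cells that make an RNA and more of that RNA per cell cannot be told apart.

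IL-1α and IL-1β, the proteins of IL1A and IL1B, bind IL1R1, which then pairs with the accessory chain IL1RAP and passes the signal through MYD88 and the IRAK kinases to NF-κB. The product of IL1RN binds the same receptor without signalling. IL-33 uses IL1RL1 (also called ST2) with the same accessory chain, and IL1RL1 also yields a secreted form that traps IL-33. IL-18 uses IL18R1 with IL18RAP. In senescent cells, membrane IL-1α is known as an upstream driver of the secretory phenotype, in which IL-6, IL-8 and other factors are released.

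The genes lie in a few places of the genome (GRCh38, GENCODE release 44). IL1A (chromosome 2, 112773925 to 112784493, ENSG00000115008), IL1B (chromosome 2, 112829751 to 112836816, ENSG00000125538) and IL1RN (chromosome 2, 113099315 to 113134016, ENSG00000136689) belong to a ligand cluster. IL1R1 (chromosome 2, 102064544 to 102179874, ENSG00000115594) and IL1RL1 (chromosome 2, 102311502 to 102352037, ENSG00000115602) belong to a receptor cluster on the same chromosome. IL33 is on chromosome 9 (6215786 to 6257983), IL18 on chromosome 11 (112143253 to 112164096), and IL1RAP (190514051 to 190659750) and IRAK2 (10164919 to 10243745) on chromosome 3. Counts cover whole genes, so that membrane and secreted forms of IL1RL1 were counted together.

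Promoter sequences of IL1A, IL1B and IL1RL1 are shown, because IL1A and IL1B were high in the same libraries and IL1RL1 has alternative starts. Sequences are from RefSeq (GRCh38.p14), written along the gene 5′ to 3′, and the exon bases annotated in GENCODE were removed. Capitals mark matches to the AP-1 motif TGANTCA or the C/EBP motif TTNNGCAA on either strand.
IL1A, chr2:112784494-112784743, minus strand: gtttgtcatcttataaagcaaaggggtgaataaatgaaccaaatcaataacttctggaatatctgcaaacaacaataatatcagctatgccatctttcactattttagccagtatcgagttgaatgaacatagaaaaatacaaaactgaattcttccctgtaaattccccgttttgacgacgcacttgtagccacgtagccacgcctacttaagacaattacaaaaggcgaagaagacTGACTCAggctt
IL1B, chr2:112836817-112837029, minus strand: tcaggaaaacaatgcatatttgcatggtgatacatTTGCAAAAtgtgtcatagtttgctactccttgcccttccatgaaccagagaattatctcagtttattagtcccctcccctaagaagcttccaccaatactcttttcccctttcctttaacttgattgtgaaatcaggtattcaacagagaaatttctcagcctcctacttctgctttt
IL1RL1, upstream start, chr2:102311313-102311501, plus strand: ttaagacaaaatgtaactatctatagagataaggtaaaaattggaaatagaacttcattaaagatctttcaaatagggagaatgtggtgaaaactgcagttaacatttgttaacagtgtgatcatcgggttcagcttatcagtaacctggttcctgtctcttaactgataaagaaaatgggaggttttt
IL1RL1, downstream start, chr2:102337007-102337147, plus strand: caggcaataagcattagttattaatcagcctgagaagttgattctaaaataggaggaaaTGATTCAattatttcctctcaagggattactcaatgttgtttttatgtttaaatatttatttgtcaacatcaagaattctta

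IL1A held an AP-1 match from base -12 to base -6, counted back from its start. The window of another RefSeq start of IL1A, not shown, held the same site and 1 further AP-1 match, and 1 of 3 windows of IL1RN held an AP-1 match. IL1B held a C/EBP match from base -215 to base -208 on the opposite strand, and the window before the downstream start of IL1RL1 held an AP-1 match from base -191 to base -185. Among 35116 RefSeq promoter windows of 250 bases, 6.57% held the AP-1 motif, 9.05% the C/EBP motif and 9.96% the NF-κB motif. No window of the 8 genes found in the table held the NF-κB motif, which says only that its letters are not in these windows. IL18 had no entry.

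**Figure D1:**
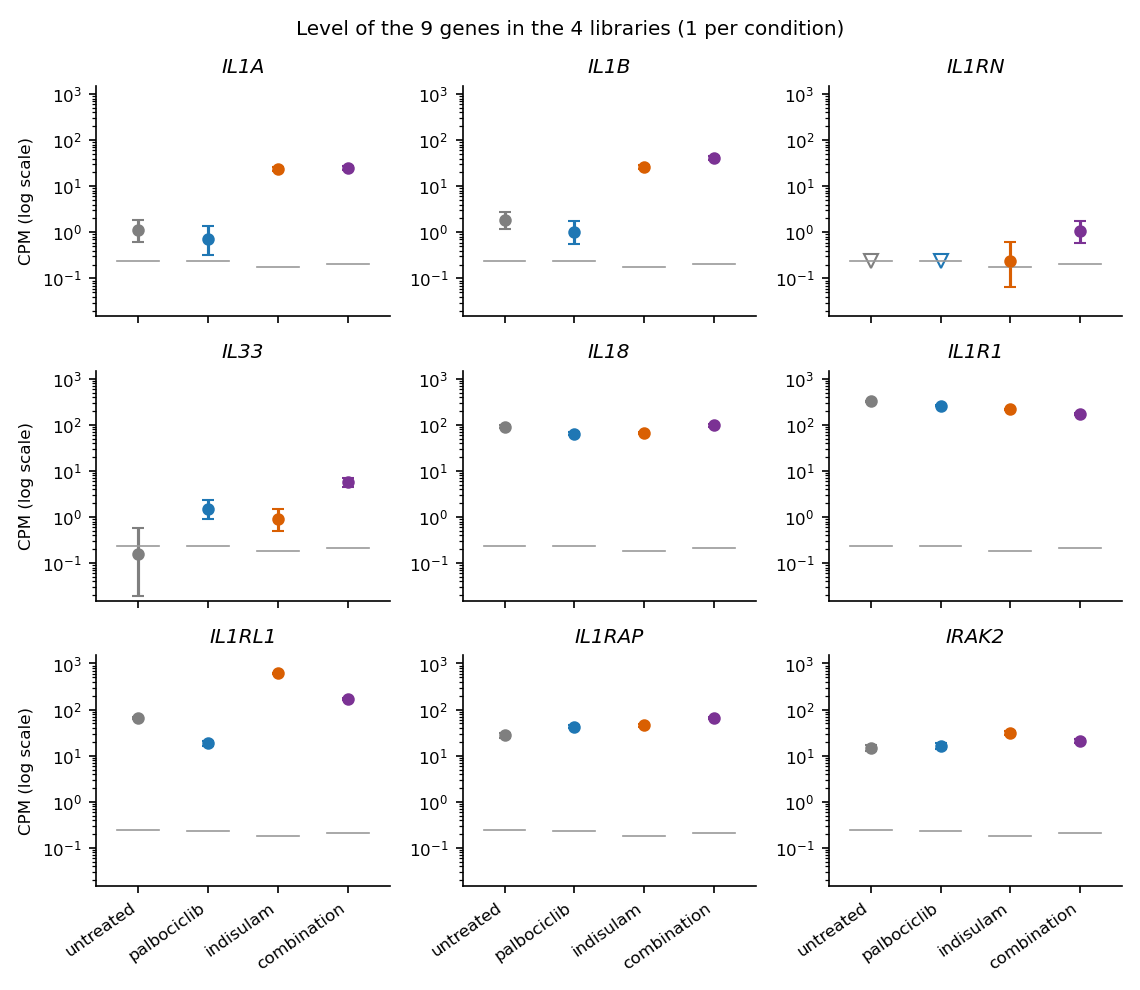
Level of each of the 9 genes in the 4 libraries, in CPM on a log axis, with exact 95% Poisson intervals as bars (hidden where smaller than the point). The grey line marks 3 reads in that library and an open triangle on it marks a library with 0 reads. IL1A and IL1B sit at 0.709 to 1.83 CPM without indisulam and at 24.1 to 40.9 CPM with it, and IL1RL1 spans 18.8 to 616 CPM.

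The agonist genes IL1A and IL1B were low in both libraries without indisulam and high in both libraries with it. IL1A had 14 reads in the untreated library (1.12 CPM), 9 with palbociclib (0.709 CPM), 402 with indisulam (24.1 CPM) and 352 in the combination (24.5 CPM). IL1B had 23 reads without drug (1.83 CPM), 13 with palbociclib (1.02 CPM), 435 with indisulam (26.0 CPM) and 587 in the combination (40.9 CPM). For both genes, the exact Poisson intervals of the libraries with indisulam lay above those of the libraries without it. For IL1B the untreated interval ended at 2.75 CPM and the indisulam interval began at 23.6 CPM.

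With 1 library per condition there was no replicate and no test. The 95% interval beside a log2 ratio comes from counting error alone. A gene was called higher or lower where its ratio reached 2-fold with an interval that left out 0. Indisulam against untreated called both genes higher. IL1A had a log2 ratio of 4.35 (3.598 to 5.10) and IL1B of 3.78 (3.18 to 4.37). Among the 14269 genes, these ratios ranked 38 and 69 from the highest. IL1A passed the filter through the libraries with indisulam, which favoured its call and rank. With palbociclib present, the ratios for indisulam were larger, at 4.98 (4.06 to 5.89) for IL1A and 5.22 (4.45 to 5.99) for IL1B, ranks 20 and 16.

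For palbociclib, neither gene was called. Against untreated, the log2 ratio was -0.60 (-1.77 to 0.56) for IL1A and -0.80 (-1.75 to 0.16) for IL1B, both from few reads and with intervals that held 0. Between combination and indisulam, IL1A was at 0.03 (-0.18 to 0.23), so that the levels in these libraries could not be separated, and IL1B was at 0.65 (0.47 to 0.83).

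Counting error leaves out the variation between libraries, so a second measure of spread was taken. The combination was compared with the sum of the single-drug log2 ratios for every gene. For a typical gene of a given level, the robust spread of that departure bounds from above the standard deviation (SD) of a single ratio. It also holds any true interaction of the drugs. Genes were placed by their mean level over all libraries. The bound was 0.28 for genes at 100 CPM or more, 0.26 from 20 to 100 CPM, 0.37 from 5 to 20 CPM and 0.62 from 1 to 5 CPM. The indisulam ratios of IL1A and IL1B were 11.8 and 10.3 times their bound, and the ratio of IL1B between combination and indisulam was 1.77 times its bound. Both genes had few reads without indisulam, where their counting error can be as large as this bound or larger. The multiples of their indisulam ratios may therefore overstate the certainty.

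IL1RN, the antagonist gene, had no read in the untreated and palbociclib libraries, 4 with indisulam (0.239 CPM) and 15 in the combination (1.04 CPM). The floor of 3 reads corresponds to 0.239 CPM without drug and 0.236 CPM with palbociclib. The exact Poisson intervals of the 0 counts reached further, to 0.294 and 0.291 CPM. Set against 3 reads in place of 0, the combination was 4.37-fold higher than untreated. The exact interval of that ratio, which also takes in the counting error of the 15 reads, began lower, at 3.14. The combination was 4.36-fold higher than indisulam, with an exact interval of 1.39 to 18.1. Divided by kilobases of annotated exon (CPM per kilobase, RPKM), IL1RN was at 0.280 RPKM in the combination, against 12.2 RPKM for IL1A and 13.6 RPKM for IL1B.

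IL33 encodes a nuclear alarmin that is released from damaged cells. It had 2 reads without drug (0.159 CPM), 19 with palbociclib (1.497 CPM), 15 with indisulam (0.898 CPM) and 82 in the combination (5.71 CPM). The combination had the highest level, the single drugs could not be ordered by counting error, and the untreated library held fewer reads than the floor of 3. IL33 passed the filter only through the combination, since the mean of the other libraries was 0.851 CPM, and this favoured its calls there.

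Between libraries that both held reads above the floor, IL33 was 3.81-fold higher in the combination than with palbociclib (exact interval 2.29 to 6.66) and 6.36-fold higher than with indisulam (3.64 to 11.9). Against the 2 reads of the untreated library, the ratios were 9.40 with palbociclib (2.27 to 83.2), 5.63 with indisulam (1.31 to 50.8) and 35.9 in the combination (9.61 to 301). For palbociclib, the log2 ratio of IL33 was 2.77 without indisulam and 2.58 with it, and the interval of their difference (-2.15 to 1.77) is wide.

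IL18, whose product is matured by caspase-1, was expressed in all libraries within a narrow range. It had 1154 reads without drug (91.9 CPM), 811 with palbociclib (63.9 CPM), 1107 with indisulam (66.2 CPM) and 1395 in the combination (97.1 CPM). The single-drug libraries were low and could not be separated from each other, and the combination and untreated libraries were high and differed by a log2 ratio of 0.08 (-0.03 to 0.19).

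Each drug therefore had an opposite sign in the presence of the other. For palbociclib, the log2 ratio of IL18 was -0.52 (-0.65 to -0.39) without indisulam and 0.55 (0.44 to 0.67) with it. For indisulam, it was -0.47 (-0.59 to -0.35) without palbociclib and 0.60 (0.48 to 0.73) with it. No single ratio reached 2-fold, and each was 1.80 to 2.31 times the bound of 0.26.

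IL1RL1, the IL-33 receptor gene, had the widest range of the 3 receptor genes. It had 828 reads without drug (65.9 CPM), 238 with palbociclib (18.8 CPM), 10297 with indisulam (616 CPM) and 2451 in the combination (171 CPM). All 4 levels were separated by counting error and by more than 4 times the bound of 0.28.

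Indisulam was called higher and palbociclib lower for IL1RL1, each in both estimates. The log2 ratio for indisulam was 3.22 (3.12 to 3.32) without palbociclib and 3.18 (2.99 to 3.37) with it. The log2 ratio for palbociclib was -1.81 (-2.02 to -1.60) without indisulam and -1.85 (-1.91 to -1.79) with it. The latter ranked 53 from the lowest of 14269 genes. As a net of both, the combination was 1.37 (1.26 to 1.485) above untreated. In the combination, where IL33 was highest, IL1RL1 was below its level with indisulam alone.

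IL1R1, the receptor for IL-1α and IL-1β, was the member with most reads in the untreated library. It had 4114 reads (328 CPM), 3308 with palbociclib (261 CPM), 3618 with indisulam (216 CPM) and 2473 in the combination (172 CPM). Its level was lower in every treated library and lowest in the combination, whereas its ligand genes IL1A and IL1B were high there. Against untreated, palbociclib gave a log2 ratio of -0.33 (-0.40 to -0.26). Indisulam gave -0.60 (-0.66 to -0.53), and the combination gave -0.93 (-0.9996 to -0.86). None of the 3 reached 2-fold. The combination was 3.31 times the bound, while neighbours in the order of levels differed by at most 1.18 times the bound. With TMM factors the last ratio was -1.02 and with median-of-ratios factors -1.002, which made IL1R1 called lower.

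IL1RAP, the accessory chain shared by IL1R1 and IL1RL1, was higher in each treated library. It had 346 reads without drug (27.6 CPM), 538 with palbociclib (42.4 CPM), 768 with indisulam (46.0 CPM) and 943 in the combination (65.7 CPM). The single-drug levels could not be separated, with a log2 ratio of 0.12 (-0.04 to 0.28) between them. Only the combination was called against untreated, at 1.25 (1.07 to 1.43), which was 4.78 times the bound.

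IRAK2 encodes a protein that sustains signalling downstream of MYD88. It had 187 reads without drug (14.9 CPM), 208 with palbociclib (16.4 CPM), 517 with indisulam (30.9 CPM) and 298 in the combination (20.8 CPM). It was highest with indisulam alone, at a log2 ratio of 1.05 (0.81 to 1.29) to untreated, and lower in the combination than with indisulam, at -0.57 (-0.78 to -0.37). The call against untreated ended with TMM factors (0.98), median-of-ratios factors (0.99) and upper-quartile factors (0.98). In the combination against untreated, IRAK2 was at 0.48 (0.21 to 0.74).

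**Figure D2:**
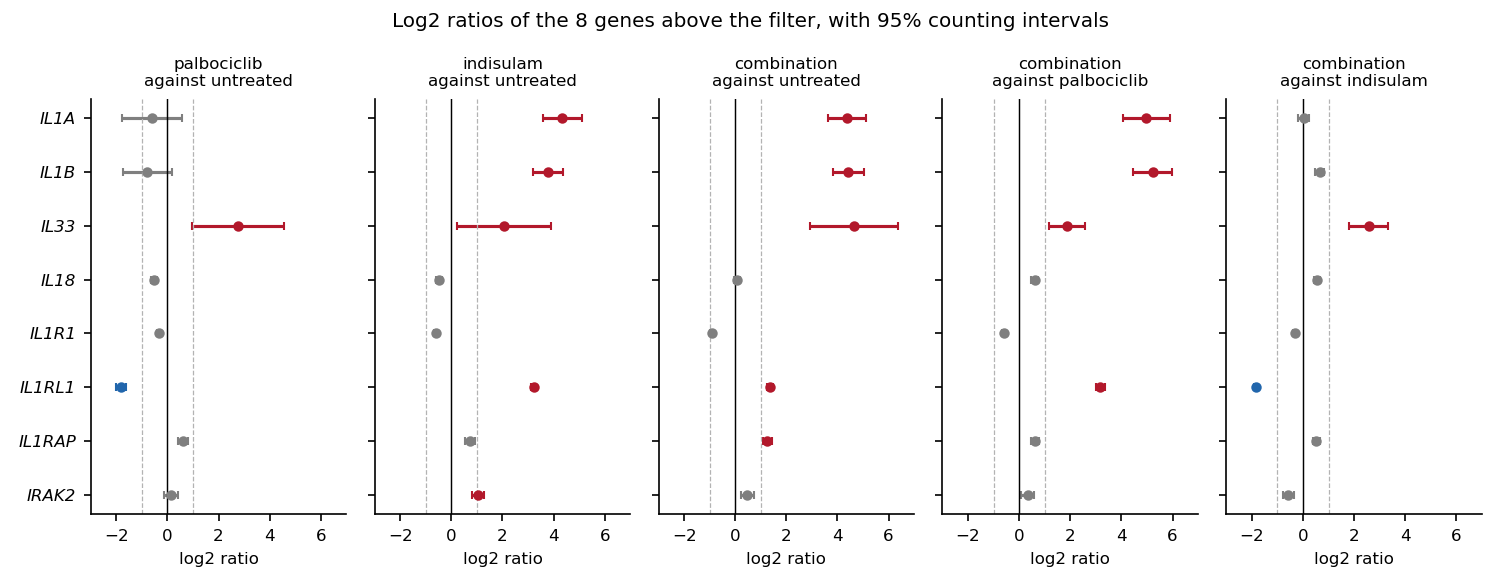
Log2 ratios of the 8 genes that passed the filter (rows) in 5 comparisons (panels), with 95% counting intervals as bars. Red points were called higher, blue points lower and grey points not called, and the dashed lines mark 2-fold. IL1A and IL1B lie between 3.78 and 5.22 in the panels of indisulam against untreated and of the combination against untreated or palbociclib, and IL1RL1 is blue in both panels where palbociclib is the only drug that differs.

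Counted over the 8 genes, palbociclib against untreated called 1 higher (IL33) and 1 lower (IL1RL1), beside 5.81% of all tested genes higher and 4.88% lower. Indisulam against untreated called 5 higher (IL1A, IL1B, IL33, IL1RL1 and IRAK2) and none lower, beside 8.37% and 6.69% of all genes. The combination against untreated called 5 higher, with IL1RAP in the place of IRAK2, beside 12.9% and 10.5%. These 3 comparisons share the untreated library.

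For the added drug, the combination against palbociclib called IL1A, IL1B, IL33 and IL1RL1 higher and none lower, beside 9.56% higher and 7.38% lower of all genes. The combination against indisulam called IL33 higher and IL1RL1 lower, beside 5.05% and 3.15%. IL33 had to differ to pass the filter, while 7 of the 9 genes were at 1 CPM or more already without drug. Of these, IL1A was near the cut, at 1.12 CPM without drug (0.610 to 1.87) and 0.709 CPM with palbociclib. The mean of these libraries lay below 1 CPM, so IL1A passed through the libraries with indisulam. This favoured its calls with indisulam and in the combination, and the counts and medians given here include it. Against untreated, the median log2 ratio over the 8 genes was 1.56 for indisulam, where all tested genes had a median of 0.06. It was 1.31 for the combination, where all tested genes had 0.05.

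The departure from additivity was called for 2 of the 8 genes, both above the sum, beside 3.93% above and 3.81% below among all genes. It was 1.45 (0.47 to 2.42) for IL1B, which rested on 13 and 23 reads in the libraries without indisulam, and 1.08 (0.90 to 1.25) for IL18. The combination was close to the sum of the single drugs for IL1R1 (0.00), IL1RL1 (-0.04) and IL1RAP (-0.11). IL33 was at -0.19, but its interval (-2.15 to 1.77) is too wide to place it. With IL33, 4 of 8 had a departure under 0.2 in size, as did 33.5% of all tested genes. IL33 went beyond 0.2 in size with TMM factors (-0.23), median-of-ratios factors (-0.21) and a pseudocount of 0.5 (-0.35). IRAK2 was below the sum at -0.71 (-1.06 to -0.36) and IL1A was at 0.63 (-0.55 to 1.81), neither called.

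**Figure D3:**
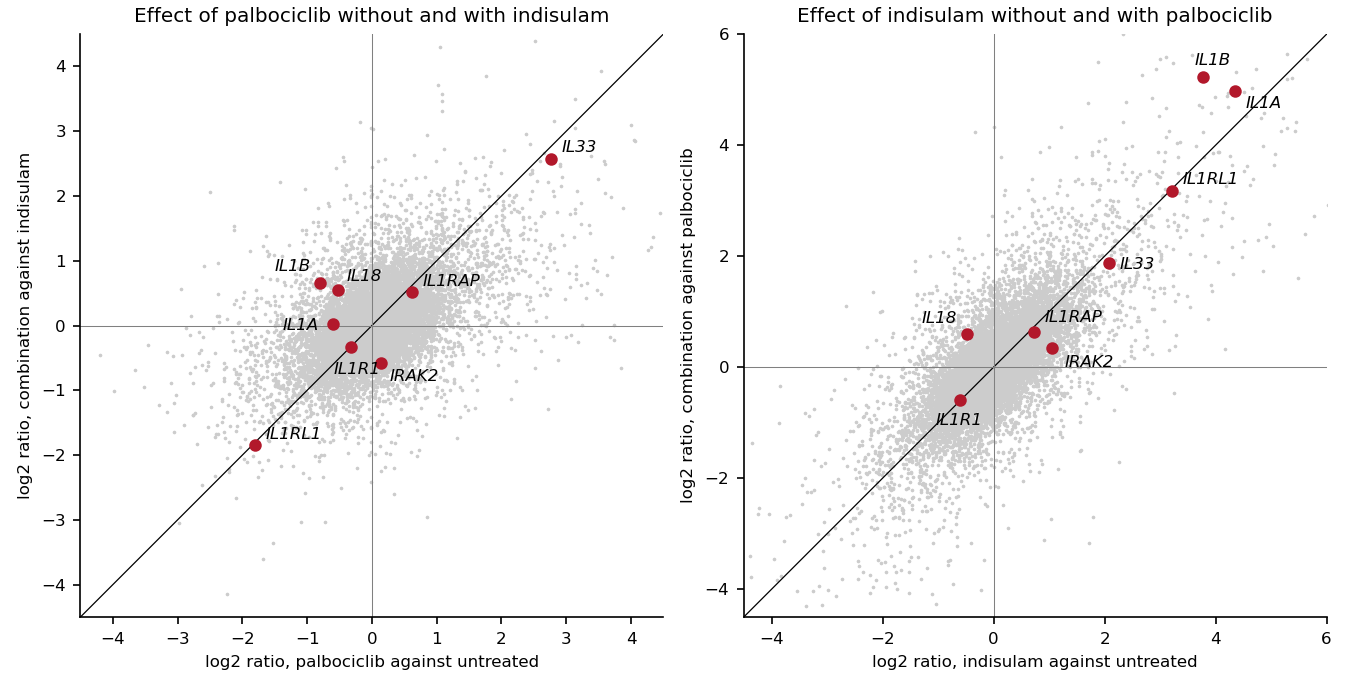
Effect of palbociclib (left) and of indisulam (right) as log2 ratios without the other drug (x axis) and with it (y axis), for all 14269 tested genes (grey) and the 8 IL-1 genes (red). On the diagonal the effects are equal. IL1RL1, IL33 and IL1R1 lie near the diagonal, IL33 with a wide interval, while IL18 lies in the upper left, with opposite signs. The difference between the effects with and without the other drug is the same in both panels by construction. The panels are therefore not separate observations of it. The axes leave out 8 genes on the left and 23 on the right.

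Per kilobase of annotated exon, the order of the genes within a library differed between conditions. Without drug, IL1R1 was highest (46.0 RPKM), followed by IL18 (35.3 RPKM) and IL1RL1 (11.5 RPKM), and IL1A and IL1B were at 0.553 and 0.609 RPKM. With indisulam, IL1RL1 was highest (107 RPKM), followed by IL1R1 (30.4 RPKM) and IL18 (25.4 RPKM). In the combination, IL18 was highest (37.3 RPKM), with IL1RL1 at 29.7 RPKM and IL1R1 at 24.2 RPKM. IL1RAP was below IL1R1 in each library, at 2.46 to 5.86 RPKM, although its annotated exons include long transcript ends that may not all be used in these cells.

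The neighbours of the members on chromosome 2 were read in gene order. In the receptor cluster, IL1R2, the decoy receptor of IL-1, had 875 reads without drug (69.7 CPM), 430 with palbociclib (33.9 CPM), 705 with indisulam (42.2 CPM) and 501 in the combination (34.9 CPM). IL1R2 was thus lower in the treated libraries, as was IL1R1 beside it. IL1RL2, the IL-36 receptor gene, had at most 2 reads.

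IL18R1, which follows IL1RL1, had 600 reads without drug (47.8 CPM), 300 with palbociclib (23.6 CPM), 1559 with indisulam (93.3 CPM) and 534 in the combination (37.2 CPM). Its log2 ratio for palbociclib was -1.01 (-1.21 to -0.81) without indisulam and -1.33 (-1.47 to -1.18) with it, both called lower. For indisulam it was 0.96 (0.83 to 1.10) without and 0.65 (0.45 to 0.86) with palbociclib, neither called. IL18RAP had 10, 11, 54 and 16 reads in the untreated, palbociclib, indisulam and combination libraries and was called higher with indisulam, at 1.93 (0.99 to 2.87). It passed the filter only through the indisulam library, which favoured that call. IL1RL1, IL18R1 and IL18RAP therefore had their highest level in the indisulam library. IL1RL1 and IL18R1 share 95 exon bases on the same strand, and reads that fell there in both genes were tallied apart.

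In the ligand cluster, IL36B, an agonist of the IL-36 receptor, and IL36RN, its antagonist, had no read without indisulam. IL36B had 7 reads with indisulam. Its 30 reads in the combination made that library at least 8.74-fold higher than untreated, set against 3 reads in the untreated library, with an exact interval that began at 6.68. IL36RN had 4 reads with indisulam and 49 in the combination, the latter 14.3-fold higher than untreated on the same terms, with an exact interval that began at 11.2. Both therefore had more reads in the combination than with indisulam, as IL1RN did, by 4.99-fold for IL36B (exact interval 2.15 to 13.5) and 14.3-fold for IL36RN (5.23 to 54.4). IL36A, IL36G, IL37 and IL1F10 had at most 4 reads. None of these 6 ligand genes passed the filter.

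**Figure D4:**
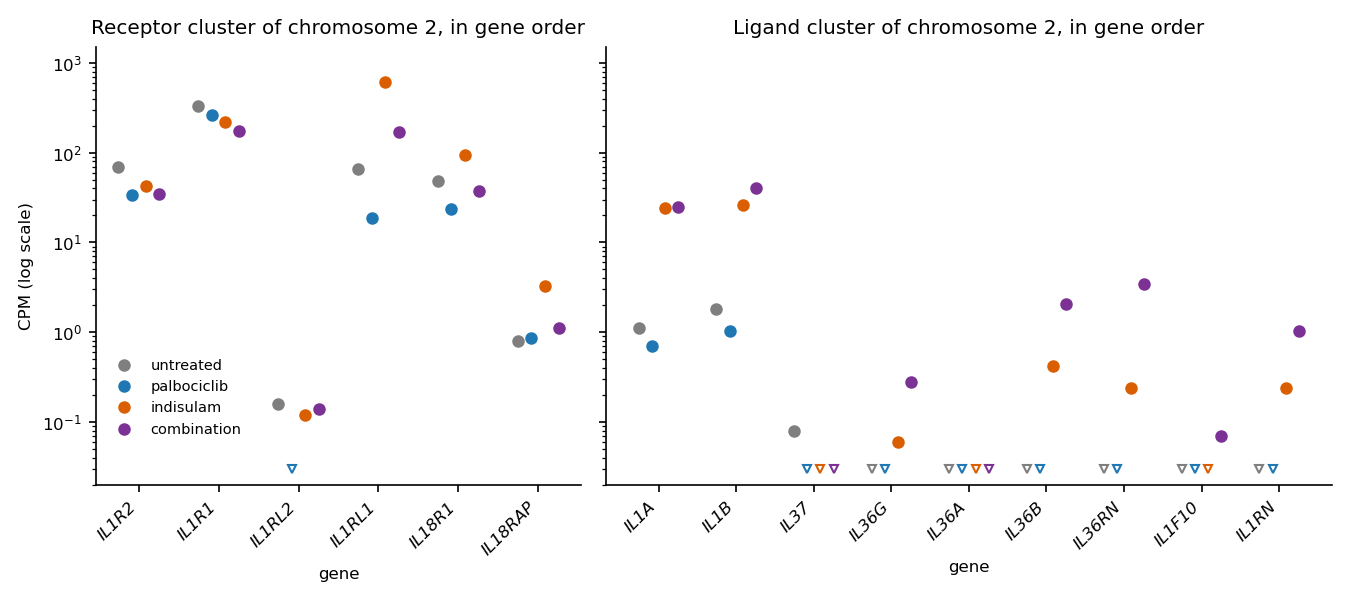
Level in CPM (log axis) of the protein-coding genes of the receptor cluster (left) and ligand cluster (right) of chromosome 2 in gene order, with 1 point per library, and open triangles at the foot for 0 reads. IL1RL1, IL18R1 and IL18RAP are highest with indisulam (616, 93.3 and 3.23 CPM), whereas IL1R2 and IL1R1 are highest without drug. IL36B, IL36RN and IL1RN are highest in the combination.

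Of the 8 other receptor and binding protein genes, 6 passed the filter. With palbociclib against untreated, IL1R2, IL18R1 and IL1RAPL2 were called lower and none higher, and the median log2 ratio of the 6 was -0.85, beside 4.88% lower, 5.81% higher and a median of -0.02 over all genes. With indisulam, IL18RAP was called higher and none lower, beside 8.37% and 6.69%. In the combination, where 10.5% of all genes were called lower, SIGIRR, an inhibitory receptor of the family, was called lower at -1.06 (-1.503 to -0.62), as was IL1RAPL2 at -1.08 (-1.64 to -0.51), a gene mainly known from neurons. IL18BP, which binds and neutralizes IL-18, was at 0.34 (-0.04 to 0.72) in the combination. Its exons overlap NUMA1 on the opposite strand.

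Of 18 signalling genes below the receptor, 17 passed the filter. With indisulam against untreated none was called, beside 8.37% higher and 6.69% lower of all genes. The median was 0.08, beside 0.06 over all genes. In the combination, 2 were called lower, a share near the 10.5% of all genes, and none higher, beside 12.9%. IRAK4, the kinase that acts before IRAK2, was called lower at -1.07 (-1.30 to -0.83). It had 415 reads without drug, 348 after palbociclib, 309 after indisulam and 226 after both, and 103 of its exon bases overlap TWF1 on the opposite strand. UBE2V1, a cofactor of ubiquitin chain assembly, was also called lower at -1.05 (-1.51 to -0.59), but it shares 2066 exon bases with a read-through gene, so that its count is uncertain. MYD88, the adaptor, was at 0.01 (-0.13 to 0.15). IRAK1 was at 0.47 (0.41 to 0.54) and TRAF6 at 0.83 (0.57 to 1.09), neither called.

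Of 14 genes of IL-1 processing and release, 11 passed the filter. CASP1, the protease that matures IL-1β and IL-18, had 950 reads without drug, 700 after palbociclib, 3325 after indisulam and 1673 after both. It was called higher for indisulam without palbociclib, at 1.39 (1.29 to 1.498), and with it, at 1.08 (0.95 to 1.21). Of all genes, 8.37% and 9.56% were called higher in these comparisons. In the combination against untreated, CASP1 was 1.54-fold higher (exact interval 1.42 to 1.67) and was not called. NLRP3, an inflammasome sensor, had 1, 12, 28 and 59 reads in the untreated, palbociclib, indisulam and combination libraries, and the ratio of combination to indisulam was 2.45 (exact interval 1.54 to 3.99). NLRP3 was the only gene of this list called higher in the combination against untreated, beside 12.9% of all genes. It passed the filter only through the combination, which favoured that call.

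The other genes that were called in the combination against untreated were lower, beside 10.5% of all genes. NLRP1, another sensor, was at -1.76 (-1.92 to -1.59), and GSDMD, which forms the pore through which IL-1β leaves cells, was at -1.57 (-1.75 to -1.39). NLRP1 and NLRP3 each share exon bases with another annotated gene on the same strand, so that their counts are uncertain. PYCARD, the adaptor that links inflammasome sensors to caspase-1, had at most 5 reads in any library. Over the 11 genes, the median log2 ratio was 0.01 in the combination and -0.24 with indisulam against untreated.

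Genes that IL-1 is known to induce were read as a list of 20, all of which passed the filter. Part of the list also stands in the study's senescence lists, so that its direction is not independent evidence. Indisulam against untreated called 16 higher and none lower, with a median of 2.80, beside 8.37% higher, 6.69% lower and a median of 0.06 over all genes. The combination called 18 higher and none lower, with a median of 3.65, beside 12.9%, 10.5% and 0.05. With palbociclib alone, 6 were called higher and none lower, with a median of 0.69, beside 5.81%, 4.88% and -0.02. Between combination and indisulam, CCL2, CSF2, MMP1 and MMP3 were called higher, beside 5.05% of all genes, and the median was 0.14. CCL2 and MMP3 passed the filter only through the combination, which favoured their calls there. CCL20 was at 0.319 CPM without drug and 0.158 CPM with palbociclib, and CSF3 was at 0.876 and 0.473 CPM. Both passed only through the libraries with indisulam, which favoured their calls with indisulam and in the combination.

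The genes of largest ratio in the combination were CSF2, CXCL1, CCL2 and MMP1. CXCL1, a neutrophil chemokine, had 13 reads without drug, 29 after palbociclib, 762 after indisulam and 1246 after both. CCL2, a monocyte chemokine, had 1, 10, 6 and 129 reads in the same order and was 25.02-fold higher in the combination than with indisulam (exact interval 11.2 to 69.4). CSF2, a growth factor gene of granulocytes and macrophages, had 1, 47, 274 and 888 reads in that order. It was 3.77-fold higher in the combination than with indisulam (3.29 to 4.33), and MMP1 was at a log2 ratio of 1.63 (1.51 to 1.76). CXCL1 was at 0.93 (0.80 to 1.06) in that comparison and was not called, and neither was IL1A or IL1B. The genes not called in the combination against untreated were ICAM1 at 0.88 and NFKBIA, a feedback inhibitor of NF-κB, at 0.30.

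**Figure D5:**
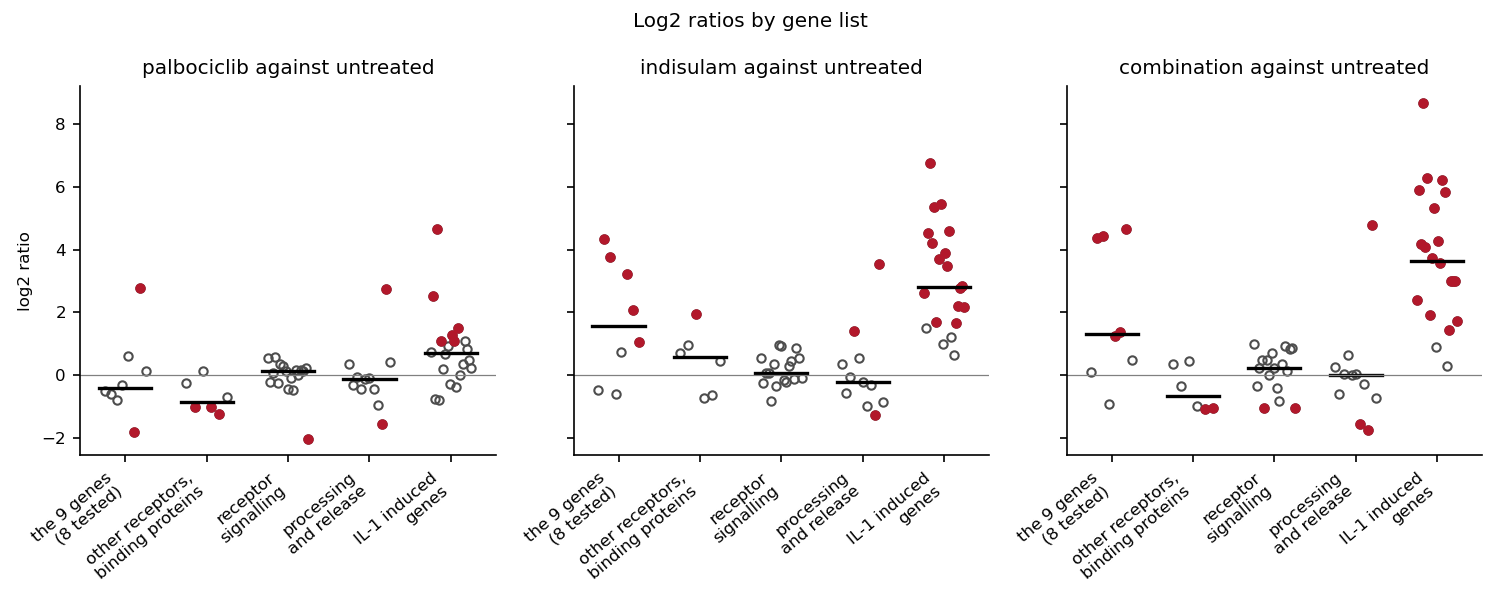
Log2 ratios to untreated (y axis) of the tested genes of 5 lists (x axis) with palbociclib, indisulam and the combination. Each circle is a gene, filled red where it was called, and the bar is the list's median. The 20 IL-1 induced genes have medians of 0.69, 2.80 and 3.65, and the signalling genes have medians of 0.11, 0.08 and 0.22.

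The genes with the pattern most like each member were found by the root mean square distance over the 3 log2 ratios to untreated, among 11318 genes with a symbol at a mean of 5 CPM or more. The 3 ratios share the untreated library, and the distance is a description. Nearest to IL1A were CSF3 (0.21), CSGALNACT1 (0.28) and IL1B (0.35), and nearest to IL1B were CSF3 (0.31), IL1A (0.35) and CSGALNACT1 (0.39). CSF3, which encodes a granulocyte growth factor, had 11 reads without drug, 6 after palbociclib, 290 after indisulam and 231 after both.

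IL1RL1 and IL33 had no gene as close. For IL33 this is uncertain, because its ratios rest on 2 untreated reads. Its own mean of 2.07 CPM was also below the 5 CPM required of the compared genes. Nearest to IL1RL1 were SLC7A2 (0.49), KRT86 (0.51) and PTGES (0.56), and nearest to IL33 were HSD17B6 (0.57), LIMS2 (0.69) and SLAMF8 (0.70). PTGES, a prostaglandin E synthase gene, was at 16.5 CPM without drug, 4.65 after palbociclib, 82.6 after indisulam and 54.2 after both. IRAK2 was nearest to MIDEAS (0.03), NLGN4X (0.08) and RELB (0.08), an NF-κB subunit gene. For genes of small ratios many others lie close, as for IL1R1 (SKIC2, SKP2 and NOL3, at 0.02 to 0.03), IL1RAP (AIF1L, CCDC9B and SGCB, at 0.01 to 0.03) and IL18 (CASC8, DCLK2 and PPCDC, at 0.01 to 0.08).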

How the data were processed

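Per the labels, the authors prepared stranded mRNA libraries, and their processing notes name TopHat2 2.1, HTSeq and GRCh38. The deposited values are raw counts of reads per Ensembl gene, 1 table per library. The strand setting and annotation release are not given in the sources used here. Reads aligned to several places (6.46% to 6.84% of reads tallied), in several genes (2.41% to 2.63%) or in no gene (0.615% to 0.694%) were tallied apart from the genes by the authors and were left out.

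Counts were scaled to a common gene total, the mean of the 4 libraries. A pseudocount of 1 was added before log2 ratios were taken, with 95% Poisson intervals, in Python 3.11.15 (numpy 2.4.6, scipy 1.17.1). Folds with exact intervals are exact conditional intervals without a pseudocount. Scaling factors for the alternatives came from edgeR 4.0.16 and DESeq2 1.42.0. The method was tried on simulated Poisson counts, which hold no variation between libraries and so cannot speak to it. Fold changes of low genes are understated on the scale with a pseudocount. Intervals and the floor of 3 reads cover counting error only, because these reads carry no molecular identifiers and may be copies of one molecule.

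The members, the gene lists and the rule for named genes (the 9 members, up to 4 called genes of each list by size in the combination against untreated, and the 3 nearest patterns) were chosen with earlier results of these data known. Other genes were named beyond this rule for their role in the pathway, after their values were seen.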

Additional observations from a re-analysis of the deposited data

Results flagged for a closer look

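IL18 was noted because the effect of each drug went in opposite directions without and with the other drug, with counting intervals that left out 0. The log2 ratio for palbociclib was -0.52 without indisulam and 0.55 with it, and the log2 ratio for indisulam was -0.47 without palbociclib and 0.60 with it. The pairs share no ratio but come from the same 4 libraries, and the difference within a pair is the same for both drugs by construction. A single high or low library would give the same picture. The signs held with TMM factors (-0.52 and 0.53 for palbociclib, -0.54 and 0.51 for indisulam). FN1, a marker used to check the line, also had opposite log2 ratios for indisulam, 0.30 without palbociclib and -0.39 with it. With 1 library per condition, these differences were not tested.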

How the results depend on the processing

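The counts of members called stayed within 1.5 times of the reported value under TMM, median-of-ratios and upper-quartile factors, a pseudocount of 0.5, exact intervals and no filter, in each of the 5 comparisons and in the departure from additivity, for which exact intervals were not computed. With a filter of 5 CPM, which leaves out IL33, the count was 1 in place of 2 for palbociclib against untreated and 1 in place of 2 for the combination against indisulam. With a 1.5-fold threshold it was 7 in place of 4 for the combination against palbociclib, where IL18 and IL1RAP were added as higher and IL1R1 as lower. In the combination against untreated the split of 5 higher and 0 lower became 5 and 1 with TMM and median-of-ratios factors. Without a filter, IL1RN was called higher in the combination against each other library. Of 192 member ratios recomputed, 185 stayed inside their counting interval, 7 moved outside it, all for IL1R1, and none of the called ratios reversed. Scaling moved the median of all genes by less than 0.1 in each comparison (at most -0.098). No paired analysis was possible because each condition has 1 library and the labels carry no replicate number. No replicate could be left out for the same reason. Depth limits IL1RN, IL33 and the IL-36 genes most, since 3 reads correspond to 0.180 to 0.239 CPM.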
